A study of Mus musculus with 6 samples.

Results

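The genes described here encode the enzymes that write, copy and remove methyl marks on cytosine in DNA. They are 9 rows of the deposited count table, picked by gene symbol (Dnmt1, Dnmt3a, Dnmt3b, Dnmt3l, Uhrf1, Tet1, Tet2, Tet3 and Tdg), out of 55487 genes in all. Each symbol matched 1 row, and all 9 had enough counts to be tested, among 17315 tested genes. RNA was sequenced from mouse embryonic stem cells differentiated for 4 days toward primitive macrophage progenitors, the first blood cells able to make macrophages. The 3 Ts1Cje libraries came from stem cells established from Ts1Cje mice, a Down syndrome model with an extra copy of distal chromosome 16 and a known deletion near the end of chromosome 12. The 3 wild-type libraries came from stem cells established from wild-type mice. Both groups were kept in serum replacement with LIF and then given FGF2, BMP-4, activin A and VEGF. The labels number samples by lot and give neither the strain, the number of lines nor whether lots were separate cultures, so each p-value reflects only how far these samples scatter, perhaps for technical reasons, and genotype and cell line cannot be told apart.

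In mammals, DNMT3A and DNMT3B place methyl groups on unmethylated CpG sites, and DNMT3L, a relative without catalytic activity, binds and stimulates them. After replication, UHRF1 recognises DNA methylated on the old strand alone and brings in DNMT1, which copies the mark to the new strand. TET1, TET2 and TET3 oxidise 5-methylcytosine, and TDG cuts out the further oxidised bases so that base excision repair can restore cytosine. In the mouse embryo, the de novo enzymes are known to be abundant in the epiblast as the genome is remethylated around implantation. None of the 9 genes lies on chromosome 16, and Dnmt3a, the one on chromosome 12, lies near its other end. The human counterpart of Dnmt3l lies on the chromosome that is trisomic in Down syndrome, but mouse Dnmt3l lies on chromosome 10.

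Total counts ran from 16577065 to 19010856 in Ts1Cje libraries and from 18459721 to 18587516 in wild-type libraries. Replicates of a group differed by more than sampling noise, with a chi-square over its degrees of freedom of 4.7 to 18. On the second principal component wild-type replicate 1 lay at 39.4 and the other wild-type libraries at −9.83 and −23.7, so values without it are given where they matter. Of 15 macrophage progenitor genes, 7 had enough counts to be tested. Ptprc and Cx3cr1 had no counts in any library, and Spi1, Adgre1, Itgam, Tyrobp, Lyz2 and Aif1 had at most 11 counts over the libraries of a group. Csf1r, the receptor of a macrophage growth factor (10.1 TPM in Ts1Cje and 7.98 TPM in wild-type, edgeR adjusted p = 0.0703), and Csf2ra, a cytokine receptor subunit gene (26.0 TPM in Ts1Cje and 23.2 TPM in wild-type, 0.348), were detected and did not pass the test. Kit, known in early blood progenitors (log2 fold change 1.47 ± 0.30 SE), and Cd68, a gene of macrophage lysosomes (0.80 ± 0.28), rose. Runx1 (1.80 ± 0.29), a blood factor that lies in the segment present as an extra copy (chromosome 16, 92601466 to 92826149), also rose, and the part of the extra copy cannot be told apart from that of cell state. Thus 3 of the 7 tested genes rose, against 23.3% of all tested genes. The summed list ran from 126 to 134 TPM in Ts1Cje and from 69.9 to 70.4 TPM in wild-type. Most of this difference was Kit, at a mean of 60.1 TPM in Ts1Cje and 21.4 TPM in wild-type.

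Dnmt3b and Dnmt3l were about 4-fold higher in Ts1Cje cells, and Tet2 was 2.27-fold higher in wild-type. Dnmt1, Uhrf1 and Dnmt3a were lower by smaller amounts, while Tet1, Tet3 and Tdg did not pass the test. Thus 2 of 9 genes rose, 4 fell and 3 did not pass (edgeR's quasi-likelihood test, adjusted p below 0.05 over all tested genes). Changes were common in these cells. Of all tested genes 43.8% were called, 23.3% higher and 20.5% lower, so 6 calls among 9 genes are set against a high background. Of the 9 genes, 3 were called with at least a 2-fold change, whereas over all tested genes 11.7% were called higher and 6.41% lower by that much. The median absolute log2 fold change was 0.30 over the 9 genes and 0.35 over all tested genes.

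**Figure D1:**
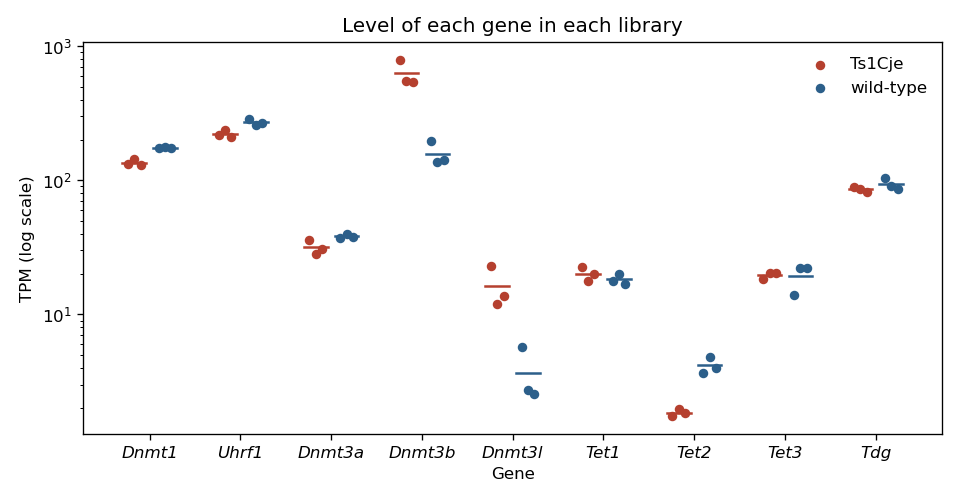
Level of the 9 genes in each library, in TPM on a log axis. Points are libraries and short lines are group means, with Ts1Cje left of wild-type. Dnmt3b and Dnmt3l are higher and Tet2 is lower in all 3 Ts1Cje libraries, and the groups overlap for Tet1, Tet3 and Tdg.

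Dnmt3b, the main de novo methyltransferase of the epiblast (ENSMUSG00000027478, mm10, chromosome 2, 153649450 to 153687730, plus strand, protein-coding), stood at 786, 554 and 539 TPM in Ts1Cje libraries, against 196, 138 and 141 TPM in wild-type libraries. Every Ts1Cje library was above every wild-type library, and replicate 1 was the highest of its genotype in both. Its mean was 626 ± 138 TPM over the Ts1Cje libraries and 158 ± 32.6 TPM over the wild-type libraries (SD, n = 3 for both). Its log2 fold change was 1.98 ± 0.21 (SE; 95% interval 1.48 to 2.49), with an edgeR adjusted p of 0.000529. With this level, Dnmt3b was the most abundant of the 9 genes in Ts1Cje, while in wild-type it came after Uhrf1 and Dnmt1 and its range overlapped that of Dnmt1.

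Dnmt3l, the catalytically inactive partner (ENSMUSG00000000730, chromosome 10, 78041947 to 78063622, plus strand, protein-coding), was far less abundant. It reached 22.8, 12.01 and 13.6 TPM in Ts1Cje libraries, against 5.71, 2.74 and 2.53 TPM in wild-type libraries. The groups did not overlap, and again replicate 1 was the highest within each genotype. The counts behind these levels were 390, 184 and 241 in Ts1Cje and 96, 47 and 44 in wild-type. Its log2 fold change was 2.15 ± 0.37 (SE; 95% interval 1.30 to 2.99; edgeR adjusted p = 0.00198), with the widest interval of the 9 genes. Dnmt3l amounted to 0.0241 ± 0.0036 of the summed Dnmt3a and Dnmt3b TPM over the Ts1Cje libraries and to 0.0180 ± 0.0057 over the wild-type libraries (SD, n = 3 for both). These ratios overlapped between the groups (2-sided exact permutation test, p = 0.3), so the partner and the summed enzymes were not told apart in how much they differed.

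The sequences just before the start sites of the genes with changes of at least 2-fold are shown because CpG content differs widely between them. The 250 bases before a RefSeq start (GRCm38.p6) are given from the gene's own strand, with each CpG in capitals. Dnmt3b has 1 listed start (chr2:153649199-153649448, plus strand). Of the 3 listed for Dnmt3l the second is shown (chr10:78049592-78049841, plus strand), and the counts do not tell which start was used. Tet2 has 1 (chr3:133544391-133544640, minus strand).
Dnmt3b: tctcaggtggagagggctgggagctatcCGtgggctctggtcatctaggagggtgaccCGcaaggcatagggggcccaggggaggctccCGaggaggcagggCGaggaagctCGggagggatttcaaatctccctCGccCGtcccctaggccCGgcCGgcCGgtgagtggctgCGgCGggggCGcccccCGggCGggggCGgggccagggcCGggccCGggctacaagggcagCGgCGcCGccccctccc
Dnmt3l: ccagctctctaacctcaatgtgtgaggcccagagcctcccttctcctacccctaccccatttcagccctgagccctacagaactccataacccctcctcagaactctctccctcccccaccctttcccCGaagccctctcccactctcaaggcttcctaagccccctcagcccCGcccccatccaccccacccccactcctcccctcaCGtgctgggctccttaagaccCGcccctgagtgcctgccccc
Tet2: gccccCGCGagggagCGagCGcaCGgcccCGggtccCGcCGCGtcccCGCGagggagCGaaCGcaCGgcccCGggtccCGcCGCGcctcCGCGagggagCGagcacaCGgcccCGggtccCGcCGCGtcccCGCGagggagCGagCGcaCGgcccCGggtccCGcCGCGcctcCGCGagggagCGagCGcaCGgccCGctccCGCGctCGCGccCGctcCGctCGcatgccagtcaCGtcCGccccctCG

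These stretches hold 21 CpG for Dnmt3b, 4 for the second start of Dnmt3l and 51 for Tet2. The other Dnmt3l starts hold 5 and 3, so all 3 are below the median of 6 CpG over 32851 promoter windows of the same length. At least as many CpG as in Tet2 were found in 0.067% of windows, against 16.3% for Dnmt3b. The word ccgcgaggga occurs 5 times in the Tet2 stretch, and 4.27% of windows repeat some word of 10 bases as often. The 2 genes that rose together therefore have promoters of unlike CpG content. DNA methylation itself was not measured.

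Dnmt3a, the other de novo methyltransferase (ENSMUSG00000020661, chromosome 12, 3806007 to 3914443, plus strand, protein-coding), stood at 35.6, 28.2 and 31.0 TPM in Ts1Cje libraries, against 37.1, 39.9 and 38.0 TPM in wild-type libraries. The groups did not overlap, but Ts1Cje replicate 1 came close to wild-type replicate 1. Its log2 fold change was −0.28 ± 0.09 (SE; 95% interval −0.49 to −0.08), with an edgeR adjusted p of 0.0294. The call was lost without Ts1Cje replicate 2 (−0.20, edgeR adjusted p = 0.0922) or 3 (0.0881) and without wild-type replicate 2 (0.102) or 3 (0.0747).

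The balance of the de novo enzymes differed, mostly through the level of Dnmt3b. Mean levels in Ts1Cje and wild-type were 626 and 158 TPM for Dnmt3b, and 31.6 and 38.3 TPM for Dnmt3a. Dnmt3b made up 95.7%, 95.2% and 94.6% of the summed Dnmt3a and Dnmt3b TPM in Ts1Cje libraries, against 84.1%, 77.6% and 78.8% in wild-type libraries. The shares did not overlap and averaged 95.1 ± 0.55% (SD) over 3 Ts1Cje libraries and 80.1 ± 3.5% over 3 wild-type libraries, with p = 0.1 in a 2-sided exact permutation test, which can give no smaller value here. As a ratio of TPM, Dnmt3b over Dnmt3a was 22.1, 19.7 and 17.4 in Ts1Cje and 5.28, 3.46 and 3.71 in wild-type.

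Reads of Dnmt3b could in part belong to a close copy. Dnmt3c, a rodent duplicate of Dnmt3b known from male germ cells, begins 8922 bp after its end. It had 88, 73 and 48 counts in Ts1Cje and 15, 10 and 5 in wild-type, or 0.389% and 0.217% of the Dnmt3b counts of the same group. Its log2 fold change was 2.83 ± 0.42 (SE, edgeR adjusted p = 0.000434). Dnmt3c was singled out after its values were seen, and how reads with several alignments were assigned is not given in the sources used here.

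**Figure D2:**
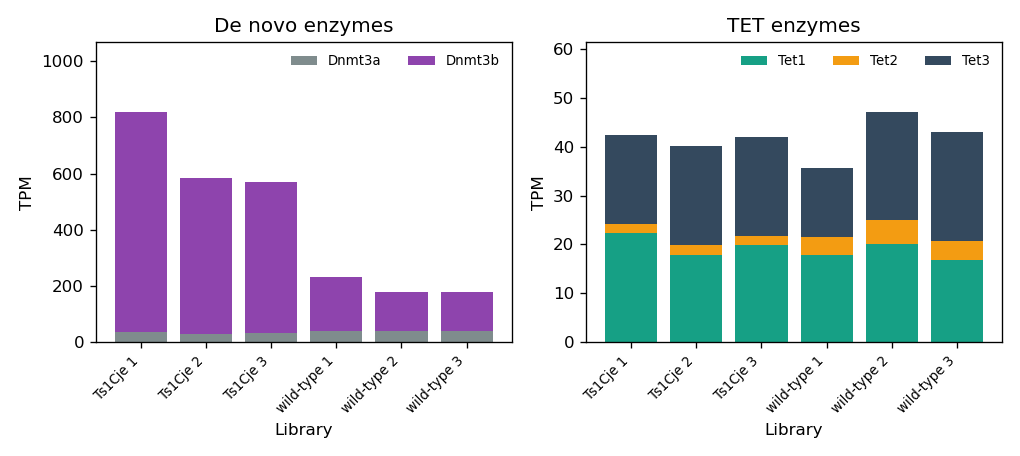
Summed TPM of the de novo enzymes (left) and of the TET enzymes (right) in each library, with Ts1Cje libraries left of wild-type. The de novo sum is higher in all 3 Ts1Cje libraries and nearly all of it is Dnmt3b, while the TET sums overlap and the Tet2 part is smaller in Ts1Cje.

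Dnmt1, the maintenance methyltransferase (ENSMUSG00000004099, chromosome 9, 20907209 to 20959888, minus strand, protein-coding), reached 131.5, 143.2 and 129.7 TPM in Ts1Cje libraries, against 175, 176 and 174 TPM in wild-type libraries. All Ts1Cje libraries were below all wild-type libraries, which lay within a few TPM of each other. The log2 fold change was −0.38 ± 0.06 (SE; 95% interval −0.51 to −0.26; edgeR adjusted p = 0.000483).

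Uhrf1, which brings DNMT1 to newly copied DNA (ENSMUSG00000001228, chromosome 17, 56303321 to 56323486, plus strand, protein-coding), stood at 217, 238 and 210.2 TPM in Ts1Cje libraries, against 285, 260.4 and 266 TPM in wild-type libraries. These groups did not overlap either, and the log2 fold change was −0.30 ± 0.06 (SE; 95% interval −0.44 to −0.16; edgeR adjusted p = 0.00369). Its ratio to Dnmt1 in TPM came to 1.65, 1.66 and 1.62 in Ts1Cje libraries, against 1.63, 1.48 and 1.53 in wild-type libraries, and the groups overlapped (2-sided exact permutation test, p = 0.2).

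Both genes are known to be expressed most strongly in S phase, under E2F factors. The E2F consensus, spelled as TTTCCCGC, TTTCGCGC, TTTGCCGC or TTTGGCGC, was searched on both strands of the 16 windows listed for the 9 genes, from 250 bases before to 50 bases after each start. It was found in 1 of 3 windows of Dnmt1, in 1 of 2 of Uhrf1 and in no window of the other 7 genes, while 2.26% of all 32851 windows hold it. Each spelling contains a CpG. The windows with a word hold 26 CpG (Dnmt1) and 30 CpG (Uhrf1) before the start, against a median of 6 over all windows. The share over all windows is therefore no like background. The 30 bases around the word, in capitals, are shown for each gene from its own strand (GRCm38.p6; Dnmt1 at chr9:20952824-20952853, minus strand, within an annotated exon, and Uhrf1 at chr17:56304117-56304146, plus strand).
Dnmt1: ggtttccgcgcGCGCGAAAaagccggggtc
Uhrf1: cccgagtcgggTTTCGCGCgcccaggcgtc

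In Dnmt1 the word reads on the opposite strand, and the same window has another, TTTGGCGC, after the start. Which start was used is not known for either gene, and a match is a description of letters that shows no binding.

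The lower maintenance genes stood beside lower replication genes. Of 31 genes of S phase and replication, 22 fell and 3 rose, against 20.5% of all tested genes called lower and 23.3% called higher. Their median log2 fold change was −0.37, close to the values of Dnmt1 and Uhrf1 and below the −0.01 over all tested genes. The helicase subunit genes Mcm6 (−0.52 ± 0.06 SE, edgeR adjusted p = 6.55e-05) and Mcm3 (−0.52 ± 0.06, edgeR adjusted p = 7.64e-05) and the helicase activator Cdc45 (−0.58 ± 0.08) fell. The 3 that rose were Ccne1 (0.62 ± 0.16), Gins2 (0.53 ± 0.09) and Chaf1b (0.54 ± 0.08), a subunit of the chromatin assembly factor. Chaf1b lies in the segment that Ts1Cje carries as an extra copy (chromosome 16, 93883901 to 93906115), and the part of the extra copy was not tested. Summed over the list, levels were 3401, 3259 and 3086 TPM in Ts1Cje libraries, against 4115, 3808 and 3715 TPM in wild-type libraries. Whether the lower replication genes have a part in the fall of Dnmt1 and Uhrf1 was not tested. In TPM the list was highest in replicate 1 of both genotypes. Uhrf1 was highest in replicate 1 in wild-type and in replicate 2 in Ts1Cje. Dnmt1 was highest in replicate 2 in Ts1Cje. In wild-type the order of Dnmt1 depended on the scale, with replicate 2 highest in TPM and replicate 3 in CPM.

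Among the TET enzymes, Tet2 fell. Tet2, often studied in blood formation (ENSMUSG00000040943, chromosome 3, 133463679 to 133545139, minus strand, protein-coding), was at 1.74, 1.98 and 1.83 TPM in Ts1Cje libraries, against 3.67, 4.86 and 4.00 TPM in wild-type libraries. The groups did not overlap, and it was the least abundant of the 9 genes in Ts1Cje. Its counts were 168, 171 and 183 in Ts1Cje and 348, 470 and 392 in wild-type. The log2 fold change was −1.18 ± 0.14 (SE; 95% interval −1.50 to −0.86), and the edgeR adjusted p of 0.000134 was the smallest of the 9 genes.

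Tet1, the main TET enzyme of stem cells (ENSMUSG00000047146, chromosome 10, 62804570 to 62908996, minus strand, protein-coding), stood at 22.4, 17.8 and 19.9 TPM in Ts1Cje libraries, against 17.9, 20.1 and 16.7 TPM in wild-type libraries. The groups overlapped, and the log2 fold change of 0.13 ± 0.10 (SE; 95% interval −0.10 to 0.36) did not pass (edgeR adjusted p = 0.338). Tet3, the enzyme known for oxidising the paternal genome in the zygote (ENSMUSG00000034832, chromosome 6, 83362373 to 83459084, minus strand, protein-coding), had 18.2, 20.4 and 20.2 TPM in Ts1Cje libraries, against 14.0, 22.2 and 22.2 TPM in wild-type libraries. Here wild-type replicate 1 was low and the other wild-type libraries were above all Ts1Cje libraries. With all libraries the log2 fold change was −0.0034 ± 0.19 (SE; 95% interval −0.44 to 0.44; edgeR adjusted p = 0.99). Without wild-type replicate 1 it was −0.21 with an edgeR adjusted p of 0.0383, so 1 library decides whether Tet3 is called.

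The TET enzymes together reached 42.4, 40.2 and 41.9 TPM in Ts1Cje libraries, against 35.6, 47.2 and 42.9 TPM in wild-type libraries, with no separation between the groups (2-sided exact permutation test, p = 0.8). The share of Tet1 in this sum came to 52.9%, 44.4% and 47.4% in Ts1Cje libraries, against 50.2%, 42.6% and 39.005% in wild-type libraries, and overlapped (2-sided exact permutation test, p = 0.4). Tet2 made up 4.11%, 4.92% and 4.38% of it in Ts1Cje and 10.3%, 10.3% and 9.31% in wild-type. These shares did not overlap (exact permutation test, p = 0.1, the smallest possible), and the share of Tet2 was chosen after its values were seen. Tet1 and Tet3 thus made up most of the TET RNA in both groups, in amounts that could not be ranked within a genotype, since their ranges overlapped.

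Tdg, the glycosylase that acts after the TET enzymes (ENSMUSG00000034674, chromosome 10, 82629828 to 82650799, plus strand, protein-coding), stood at 89.0, 85.8 and 82.1 TPM in Ts1Cje libraries, against 103, 90.2 and 86.0 TPM in wild-type libraries. The groups overlapped and the log2 fold change was −0.13 ± 0.07 (SE; 95% interval −0.29 to 0.03; edgeR adjusted p = 0.184). Processed pseudogenes could share its reads. Tdg-ps2 had 196 counts over the Ts1Cje libraries and 194 over the wild-type libraries, 2.54% and 2.26% of the Tdg counts.

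**Figure D3:**
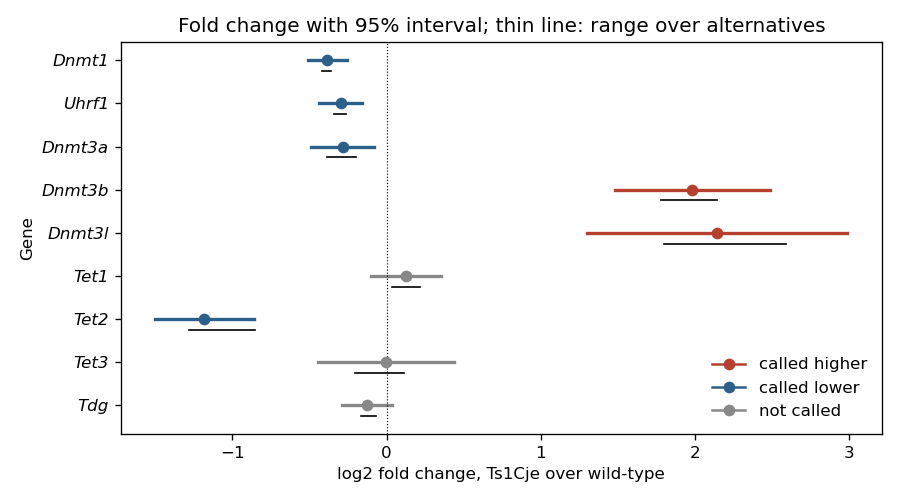
Log2 fold change of each gene, Ts1Cje over wild-type, with its 95% interval (thick line) and the range over 15 alternative analyses (thin line below it). The intervals of Tet1, Tet3 and Tdg cross 0, and only the range of Tet3 over the alternatives does.

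On the TPM scale, which corrects for length, the order in Ts1Cje was Dnmt3b, Uhrf1, Dnmt1, Tdg, Dnmt3a, Tet1, Tet3, Dnmt3l and Tet2. In wild-type it was Uhrf1, Dnmt1, Dnmt3b, Tdg, Dnmt3a, Tet3, Tet1, Tet2 and Dnmt3l. Neighbours whose ranges overlapped were Tet1 and Tet3 and also Tet3 and Dnmt3l in Ts1Cje, and Dnmt1 and Dnmt3b, Tet3 and Tet1, and Tet2 and Dnmt3l in wild-type. Tdg and Dnmt3a kept the fourth and the fifth place in both.

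The genes around the 3 with changes of at least 2-fold were counted as a description. Those 3 were picked for large changes, so smaller medians around them are no result. Over all tested genes 23.3% were called higher and 20.5% lower. Among tested genes starting within 5 Mb, the median log2 fold change was −0.01 around Dnmt3b (159 genes, 34 higher and 27 lower), 0.16 around Dnmt3l (213 genes, 71 higher and 26 lower) and 0.0034 around Tet2 (55 genes, 16 higher and 9 lower). Around the other 6 genes the medians ran from −0.09 to 0.15.

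For Dnmt3l, the called gene with the largest increase, the protein-coding genes with the most similar pattern were Tmem14c, Klf9 and Catsper2 (Pearson r of log2 CPM 0.998, 0.998 and 0.998 over 6 libraries). For Tet2, the called gene with the largest decrease, they were Lrrc61, Bnip3l and Rpl13a (1.00, 0.999 and 0.999). The points share the difference between genotypes, and 15.1% and 15.9% of protein-coding genes reached an r above 0.9 with Dnmt3l and Tet2, so these values single out little.

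Genes of early cell states moved with the same groups. Their lists were chosen with earlier results of these data known. Over all tested genes 23.3% were called higher and 20.5% lower. In bulk RNA, fewer cells of a type and less RNA per cell cannot be told apart. The primed epiblast list, taken without Dnmt3b, marks the state that precedes gastrulation, and 10 of its 11 genes were called higher and Lef1 (−1.92) lower (median log2 fold change 2.18). Among them were Foxd3 (5.43 ± 0.31 SE), Otx2 (3.75 ± 0.29), Sox3 (2.93 ± 0.38) and the growth factor gene Fgf5 (5.51 ± 0.49). The summed list stood at 981, 848 and 855 TPM in Ts1Cje libraries, against 304, 199 and 193 TPM in wild-type libraries. Replicate 1 was the highest within each genotype, as it was for Dnmt3b and Dnmt3l. Of 14 genes of naive pluripotency 6 rose, 1 fell, 4 did not pass and 3 had too few counts, and the sums ran from 415 to 633 TPM in Ts1Cje and from 120 to 195 TPM in wild-type. Tfcp2l1 (2.20 ± 0.20 SE), Klf5 (2.33 ± 0.21) and Zfp42 (2.53 ± 0.30), factors of the naive state, rose, and Tbx3 (−1.53 ± 0.13) fell. Esrrb (0.10 ± 0.28), Klf2 (0.61 ± 0.25), Dppa3 (0.94 ± 0.51) and Fgf4 (0.08 ± 0.34) did not pass. Prdm14, Nr0b1 and Tcl1 were those with too few counts. Much of the naive sums in Ts1Cje was Dppa5a, at a mean of 280 TPM in Ts1Cje and 28.2 TPM in wild-type.

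Most genes of the endoderm list were also higher, and most genes of the streak and mesoderm list were lower. These are again set against 23.3% of all tested genes called higher and 20.5% called lower. Of 17 genes of definitive and visceral endoderm 14 rose and 1 fell (2 without Ts1Cje replicate 2). Sox17 (3.18 ± 0.12 SE), Hnf4a (2.83 ± 0.20) and Foxa2 (4.41 ± 0.24) were among those that rose. Sox7 (−1.12 ± 0.23) fell, and Cxcr4 (−0.37 ± 0.20) and Apoe (0.12 ± 0.09) did not pass. The sums were 2129 to 2327 TPM in Ts1Cje and 1108 to 1216 TPM in wild-type. A large part was Apoe, at a mean of 916 TPM in Ts1Cje and 835 TPM in wild-type. Of 15 genes of primitive streak and mesoderm 9 fell and 1 rose (3 without wild-type replicate 1), with Msx2 (−2.66 ± 0.17), Msx1 (−3.26 ± 0.27) and Bmp4 (−4.43 ± 0.37) among those that fell and Gata4 (0.55 ± 0.08), also known from endoderm, as the one that rose. T (−0.74 ± 0.38), Mixl1 (−0.96 ± 0.61), Tbx6 (−1.88 ± 0.73), Eomes (1.20 ± 0.45) and Pdgfra (0.12 ± 0.18) did not pass. The streak and mesoderm sums were 762 to 1106 TPM in Ts1Cje and 3017 to 3154 TPM in wild-type. Hand1 alone averaged 28.1 TPM in Ts1Cje and 945 TPM in wild-type. What part these cell state markers have in the levels of Dnmt3b, Dnmt3l and Tet2 was not tested.

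**Figure D4:**
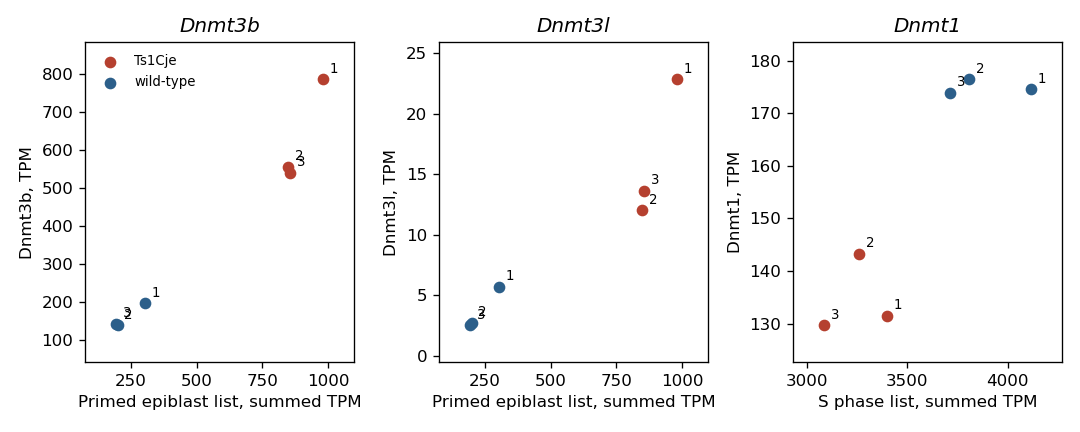
Level of Dnmt3b and Dnmt3l against the summed primed epiblast list without Dnmt3b, and of Dnmt1 against the summed S phase list, in TPM. Each point is a library with its replicate number. Replicate 1 lies highest in both genotypes in the Dnmt3b and Dnmt3l panels.

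Other genes of the pathway changed less. Of 69 distinct genes in the lists of regulators, TET partners, repair enzymes, readers and the S-adenosylmethionine cycle, 66 were tested, 11 rose and 20 fell. That is 47% called, near the 43.8% over all tested genes. Their median absolute log2 fold change was 0.20, against 0.35 over all tested genes, and 4 were called with at least a 2-fold change. Those were Nanog (2.80) and Klf4 (1.93), factors of the pluripotent state, and the repair gene Neil3 (−1.04) and the stress-inducible gene Gadd45g (−1.39).

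Of 22 regulators of DNA methylation 3 rose and 9 fell, with a median log2 fold change of −0.13. Of all tested genes 23.3% were called higher and 20.5% lower. Cdca7, which with the remodeller HELLS opens chromatin for methylation (−0.63 ± 0.07 SE, edgeR adjusted p = 0.000102), Zfp57, a factor that protects methylation at imprinted genes (−0.66 ± 0.10, edgeR adjusted p = 0.000457), and Lig1, a DNA ligase that helps recruit UHRF1 (−0.40 ± 0.06, edgeR adjusted p = 0.000569), fell. Cdca7l, a relative of Cdca7, rose (0.78 ± 0.09, edgeR adjusted p = 8.31e-05). Cdca7l lies on chromosome 12 (117804289 to 117878706), near the deletion that Ts1Cje is known to carry, and shares 725 bp with Dnah11 on the opposite strand, so its reads are uncertain. Hells stood at −0.01 ± 0.07. Morc3, a chromatin protein gene on chromosome 16 (93832121 to 93876073), in the part that Ts1Cje carries as an extra copy, rose by 0.34 ± 0.07 (edgeR adjusted p = 0.00291) and was singled out after its values were seen.

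Of 14 genes of TET partners and of enzymes that supply or clear 2-oxoglutarate metabolites, 3 rose, 1 fell and 8 did not pass, while Prdm14 and Wt1 had too few counts. Of all tested genes 23.3% were called higher and 20.5% lower. Besides Nanog (2.80 ± 0.41 SE), Cxxc4, which binds TET2 and lowers its protein (0.79 ± 0.22), and the stem cell factor Sall4 (0.35 ± 0.11) rose. Ogt, a glycosyltransferase that binds TET enzymes, fell (−0.36 ± 0.10, edgeR adjusted p = 0.0157). Without Ts1Cje replicate 2 or wild-type replicate 3, 1 gene of this list rose. The count of genes that fell was 2 without Ts1Cje replicate 3 and 0 without wild-type replicate 2. Idh1 (−0.09 ± 0.09) and Idh2 (−0.08 ± 0.09), which make the TET cofactor 2-oxoglutarate, did not pass.

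Of 16 base excision repair genes 2 rose and 5 fell (median log2 fold change −0.10). This is near the share over all tested genes, of which 43.8% were called, 23.3% higher and 20.5% lower. Neil3 (−1.04 ± 0.16 SE, edgeR adjusted p = 0.000585) and Mbd4 (−0.51 ± 0.12), both DNA glycosylase genes, Apex1, the main endonuclease at abasic sites (−0.52 ± 0.09), and Gadd45g (−1.39 ± 0.24) fell. The glycosylase genes Neil1 (0.56 ± 0.17) and Neil2 (0.68 ± 0.16) rose. Without Ts1Cje replicate 1 or 3 or wild-type replicate 1 or 3, 1 gene of the list rose. Of 10 readers of methylated CpG 2 rose and 5 fell (2 fell without Ts1Cje replicate 1). Zbtb4, a zinc finger reader, rose (0.74 ± 0.15), as did Klf4, and Uhrf2, the relative of Uhrf1 (−0.49 ± 0.10), fell, as did Zfp57. Of 9 genes of the S-adenosylmethionine cycle, which makes the methyl donor, 1 rose, 2 fell and 5 did not pass. Methionine synthase, Mtr (−0.55 ± 0.08, edgeR adjusted p = 0.000302), and Ahcyl1 (−0.38 ± 0.07) fell, Ahcyl2 (0.43 ± 0.08) rose, and Mat2a, the synthetase of the methyl donor, stood at −0.10 ± 0.10.

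**Figure D5:**
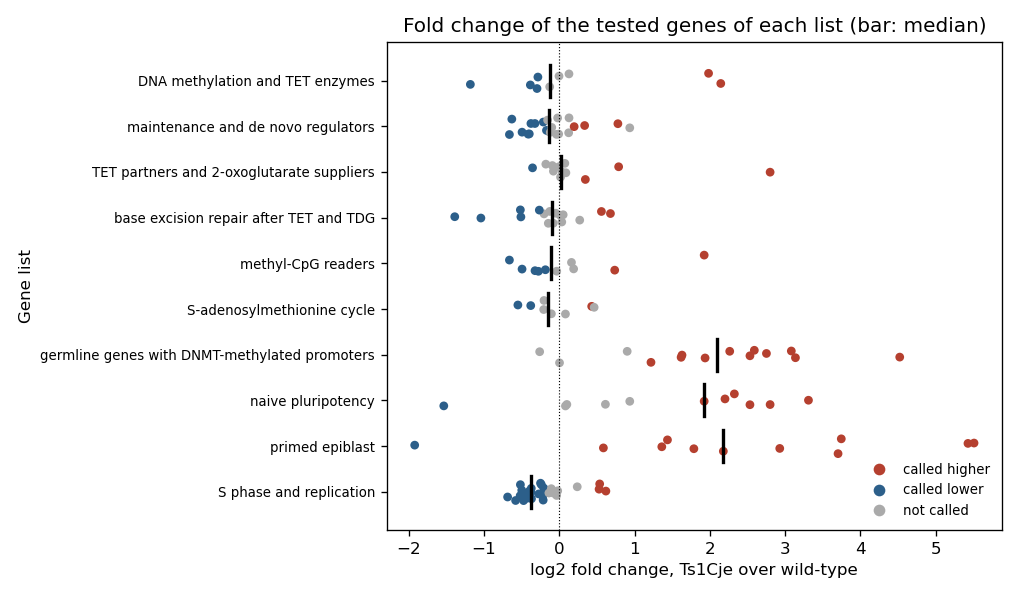
Log2 fold change, Ts1Cje over wild-type, of each tested gene by list, with the 9 enzyme genes in the top row and left out of the other rows. Points are genes coloured by call and bars are medians. The pathway lists lie close to 0, the S phase list lies below it, and the pluripotency and epiblast lists lie mostly above it. The germline row holds tested genes only. Such genes can pass the count filter through the group where they are high, so this row gives no direction for the list.

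A list of germline genes, whose promoters are known to be silenced by DNMT enzymes in the mouse embryo, was also counted. Of its 25 genes, 11 rose, 3 did not pass and 11 had too few counts. A low gene can pass the count filter through the group where it is high, so these counts are an account of the list and no measure of its direction. The untested genes held 206 counts in Ts1Cje and 62 in wild-type, and 10 of the 11 had more counts in Ts1Cje. Rhox5, a homeobox gene also active in extraembryonic endoderm, rose (2.75 ± 0.17 SE, edgeR adjusted p = 5.69e-06). Tex19.1, a gene of germ cells, placenta and stem cells (3.14 ± 0.25), and Syce1, of the synaptonemal complex of meiosis (4.52 ± 0.45), also rose. Zfp42, which is in the naive list too, was described above. Most of the list's RNA was Rhox5, at 388 ± 68.3 TPM in Ts1Cje and 57.5 ± 10.2 TPM in wild-type (SD, n = 3 for both). Summed over all 25 genes, levels were 550, 391 and 520 TPM in Ts1Cje libraries, against 102, 75.9 and 71.1 TPM in wild-type libraries. The groups did not overlap, as in 55.2% of all tested genes taken singly. Whether methylation at these promoters differed was not measured.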

How the data were processed

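Poly(A) RNA of 6 samples was sequenced with a directional kit, per the labels' protocols. Tables of raw counts and of TPM by gene, with 1 column per library, were deposited by the authors. FastQC 0.11.7, Trimmomatic 0.38, HISAT2 2.1.0, featureCounts 1.6.3 and mm10 are named in the submitters' processing notes. Their order and settings and the counting strand are not stated there. Reads of overlapping or antisense genes, such as Aire beside Dnmt3l, can therefore not be assigned with certainty. TPM sums to the same total per library, so it shows shares and not absolute amounts.

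Counts were tested in R 4.3.3 with edgeR 4.0.16 (filterByExpr with a minimum count of 10 and a minimum total of 15, TMM, robust quasi-likelihood fit, no covariate), with Benjamini-Hochberg adjustment over the 17315 genes kept and a threshold of 0.05. Fold changes are Ts1Cje over wild-type. Each SE was derived from the F statistic (log2 fold change divided by the root of F), is approximate, and gives the 95% interval with the fit's degrees of freedom. Levels are the deposited TPM. Shares and sums of TPM were compared with 2-sided exact permutation tests, whose smallest p with 3 against 3 libraries is 0.1. This test was used for 9 shares, sums and ratios, and adjusted over that family none could pass 0.05. Alternatives used DESeq2 1.42.0, limma 3.58.1 (voom, and trend on log2(TPM + 1) or log2(TPM + 0.1)), other size factors and filters, the lot number as a block, and each library left out. The edgeR step was tested on simulated counts, with few changed genes and the same dispersion for all. Many genes changed in these data, so that test checks the code and not the calls made here.

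All 9 enzyme genes were named, and up to 4 called genes of each other list by smallest adjusted p, plus list genes that a sentence needed for contrast. The enzyme genes and lists were chosen with earlier results of these data known. Promoter windows are RefSeq's, on GRCm38.p6, matched by symbol for 9 of 9 genes. The genes' coordinates were the same in GENCODE M21 as in the deposited tables.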

Additional observations from a re-analysis of the deposited data

How the results depend on the processing

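Over the 15 alternatives, Dnmt3b (log2 fold change 1.78 to 2.14), Dnmt3l (1.80 to 2.59), Tet2 (−1.28 to −0.85), Dnmt1 (−0.42 to −0.36) and Uhrf1 (−0.34 to −0.26) were called with the same direction in each, and Tet1 (0.03 to 0.21) and Tdg (−0.17 to −0.07) were called in none. Dnmt3a kept its direction (−0.39 to −0.20) and its call in 9, with adjusted p up to 0.102. It lost the call on leaving out 4 of the 6 libraries and with limma-trend on TPM (adjusted p = 0.0541 in both fits). Tet3 changed sign to 0.032 with limma-voom, 0.035 and 0.039 with limma-trend at a pseudocount of 1 and 0.1, 0.0082 where the mean log2 CPM had to reach 1, and 0.028 with the replicate block, and ran from −0.21 to 0.11 on leaving out single libraries; the cause was not tested. The number of the 9 genes called higher was 2 in every alternative. The number called lower was 3 to 5 on leaving out single libraries and 3 or 4 in the others.

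The difference in the Dnmt3b share was 15.0 percentage points, 13.7 to 16.97 on leaving out single libraries, and 30.2 with raw counts in place of TPM, since Dnmt3a counts then carry the length of its transcripts. For the Tet1 share it was 4.24, or 1.76 to 7.38 on leaving out single libraries. Counts in the lists moved by more than 1.5 times as follows, besides those given with the lists. Where the mean log2 CPM had to reach 1, 6 in place of 11 germline genes rose, since fewer were tested. With limma-trend on TPM, 3 in place of 5 readers fell. With DESeq2 size factors, upper-quartile factors or the replicate block, 2 in place of 1 TET partner fell. With DESeq2, limma-voom or limma-trend, 2 in place of 1 mesoderm gene rose, and with no filter 2 in place of 1 endoderm gene fell.

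With the lot number as replicate block the 9 genes gave the same calls, 2 higher and 4 lower (Dnmt3a adjusted p = 0.0404), and 4361 and 3965 of all genes were called, against 4032 and 3547. The SE of Dnmt3b was then 0.056, against 0.21 without the block, and that of Dnmt3l 0.17, against 0.37. For Dnmt3a (0.095) and Tet1 (0.108) the SE was slightly larger with the block. The SEs and intervals given with each gene take no account of lot number. Same-numbered libraries correlated by 0.219, 0.0589 and 0.202 in their deviations from the group means, and each library correlated best with its own number. The labels do not say whether samples of the same number are paired, and these correlations do not settle it. Depth limits Dnmt3l and Tet2 most, with 44 to 470 counts per library.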

Other observations

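The annotated antisense transcript Dnmt3bos, which overlaps the start of Dnmt3b on the opposite strand, had 25, 14 and 11 counts in Ts1Cje libraries, against 0, 1 and 4 in wild-type libraries (log2 fold change 3.26 ± 0.77 SE, edgeR adjusted p = 0.00644). It was singled out after its values were seen, and without the counting strand its reads cannot be told apart from those of Dnmt3b.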
